A study of Solanum lycopersicum with 8 samples.

Results

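Anthers of heat-stressed wild type (WT) tomato plants were compared with young leaves of heat-stressed WT plants, gene by gene, with 1 library in each tissue. These were 2 of the 8 libraries of the study, which covered anthers and leaves of 2 genotypes with and without heat. All 29345 listed genes were read, and the 9627 genes whose level averaged 10 CPM or more over the heated anther and the heated leaf were compared. CPM is the number of reads of a gene per 1000000 reads of its library.

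All plants were Solanum lycopersicum cv Moneymaker, 8 weeks old, grown in a glasshouse with days of 16 h at 24 °C and nights of 8 h at 20 °C. The heated plants were moved to a growth chamber with 120 μmol m-2 s-1 of light, kept for 1 h at 39 °C and left to recover for 1.5 h at 24 °C. The other anther and leaf pairs were control WT, heated A2AS and control A2AS, where A2AS is known from the study as a transgenic line with suppressed HsfA2. How the control plants were handled and how many plants entered a library is not described in the labels, and the anthers were a mixture of developmental stages. RNA was read by massive analysis of cDNA ends (MACE), in which the last 500 bp before the poly(A) tail are sequenced and each transcript gives 1 read, so that levels of different genes can be set side by side without a length term. Names of genes are those of published tomato nomenclature, and the deposited tables hold only the IDs.

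In plants, heat unfolds proteins, and heat stress transcription factors (Hsfs) switch on chaperones that hold, refold or disaggregate them. Small heat shock proteins (sHSPs) bind unfolding proteins, HSP70 and HSP90 refold and mature them with ATP, and HSP101 pulls aggregates apart. Anthers and young leaves start from different programmes. Leaf cells are filled with chloroplasts and export sucrose, whereas anthers are sinks in which the tapetum feeds the developing pollen, under the control of floral organ identity genes.

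The heated anther library held 13722325 reads and the heated leaf library 13857252, within a range of 6243965 to 14764187 over the 8 libraries. The listed genes took 69.3% of the anther reads and 71.1% of the leaf reads. At least 1 CPM was reached by 16778 genes in the anther and 16095 genes in the leaf. A count of 3 reads, taken as the limit that a count of 0 allows, equals 0.219 CPM in the anther and 0.216 CPM in the leaf. With 1 library a tissue the pair has no replicate check and no test. Intervals given with folds are exact (Clopper-Pearson) 95% intervals that cover counting error only. Ratios are log2 of (anther CPM + 1) over (leaf CPM + 1), which understates differences of low genes, while folds are ratios of the CPM values themselves.

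The tissue labels were checked against 11 anther markers (4 tapetum regulators, the pollen gene LAT52 and 6 class B and C MADS box genes) and 51 nuclear photosynthesis genes. Together the anther markers held 2829 CPM in the heated WT anther and 59.6 CPM in the heated WT leaf. The photosynthesis genes held 12194 CPM, or 1.76% of the listed reads, in the anther and 87341 CPM, or 12.3%, in the leaf. No gene of either marker set was at 0 in either library, and both libraries went with their labels. In the leaf the anther markers lay between 0.144 and 19.7 CPM.

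One library outside the heated pair bears on what follows. The control WT leaf held more heat shock transcripts than the other 3 control libraries: the 12 listed sHSP genes summed to 972 CPM there, against 153 CPM in the control WT anther, 194 CPM in the control A2AS anther and 159 CPM in the control A2AS leaf. Comparisons with the control WT pair rest on that leaf library, and the control A2AS pair is therefore given beside it. In addition, HsfA2 was at 39.3 CPM in the anther library labelled heated A2AS and at 22.3 CPM in the heated WT anther, so that the genotype label of that library was not borne out by its HsfA2 level.

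Across the 9627 genes, 3390 (35.2%) differed at least 2-fold between the heated tissues. Of these, 1621 (16.8%) were higher in the anther and 1769 (18.4%) were lower, and the median log2 ratio was 0.08. At least 4-fold, 807 genes were higher and 826 lower in the anther. At least 16-fold, 316 genes were higher and 184 lower. Log2 ratios ran up to 7.02 and down to -6.61. Rescaling the libraries by the median ratio of all genes moved the median to -0.01 and the split to 1393 higher and 1831 lower.

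**Figure D1:**
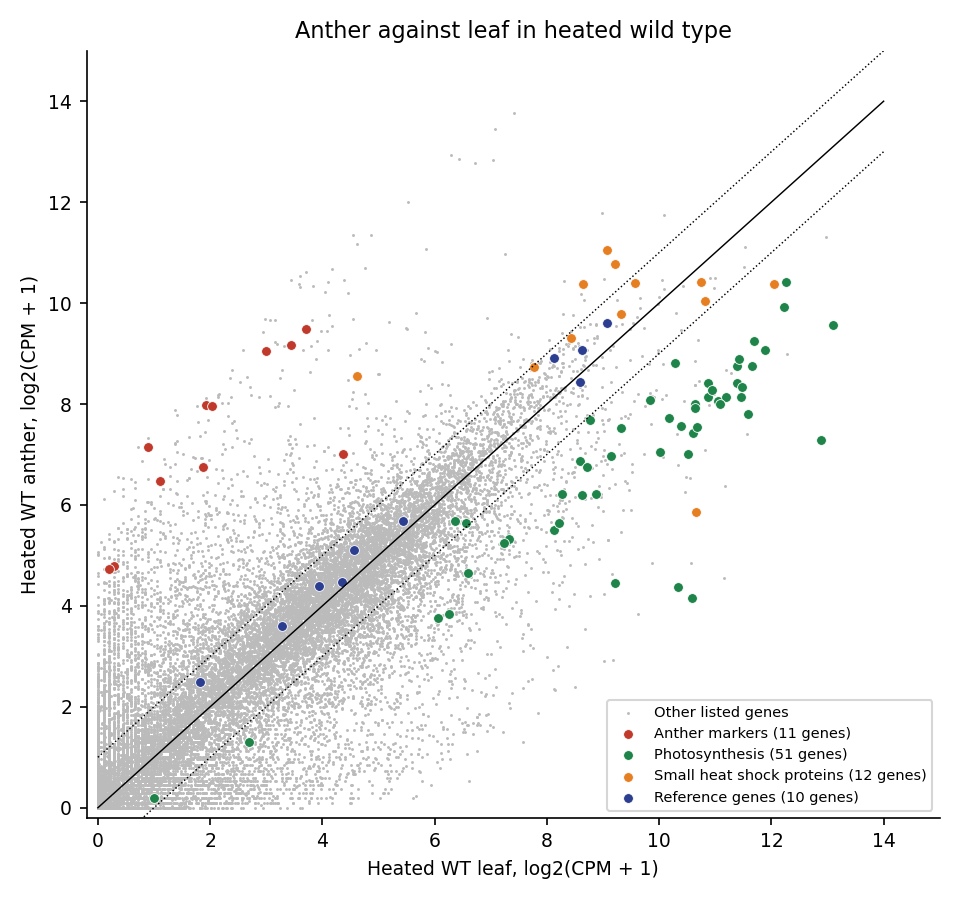
Level of each gene in the heated WT anther (vertical axis) against the heated WT leaf (horizontal axis), both as log2(CPM + 1), with the diagonal as equality and dotted lines at 2-fold; coloured points are the 11 anther markers, the 51 photosynthesis genes, the 12 sHSP genes and the 10 reference genes. Anther markers sit far above the diagonal and photosynthesis genes below it, while most sHSP genes are high on both axes and they fall on both sides.

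The most abundant transcripts overlapped in part. The 100 most abundant genes took 24.0% of the listed reads in the anther and 26.3% in the leaf, and 28 genes were on both lists. The leaf list held 31 of the 51 photosynthesis genes and 5 sHSP genes, whereas the anther list held 3 photosynthesis genes and 9 sHSP genes. The 10 most abundant anther genes summed to 68221 CPM in the anther and 2354 CPM in the leaf. Of the genes in none of the lists described here, Solyc01g099530 had the highest ratio, with 1412 CPM in the anther and 9.89 CPM in the leaf (143-fold, 95% interval 121 to 170). At the other end Solyc08g082190 had 22.4 CPM in the anther and 2283 CPM in the leaf (102-fold lower in the anther, interval 91.2 to 115). The files give neither of these IDs a name.

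Photosynthesis genes were lower in the anther nearly throughout. Of the 24 chlorophyll a/b-binding (CAB) genes, which encode the light-harvesting antenna, 22 were at least 2-fold lower, and their median log2 ratio was -2.70. All 15 photosystem and plastocyanin genes were lower (median -2.63), as were 11 of 12 genes of carbon fixation (median -2.21). The share of genes lower over the whole table was 18.4%, with a median of 0.08.

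Within this group the depth of the difference varied from gene to gene. The highest CAB gene, Solyc07g047850, had 973 CPM in the heated WT anther and 4792 CPM in the leaf (4.92-fold lower, interval 4.83 to 5.02). Another CAB gene, Solyc03g005780, had 21.0 CPM in the anther and 596 CPM in the leaf (28.3-fold lower, interval 25.1 to 31.9). Antenna genes thus differed widely among themselves in how far they lay below the leaf level. CAB genes are near-identical copies in part, and how reads matching several copies were assigned is not given, so single members are less certain than the group.

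PSBR, a subunit of the oxygen-evolving side of photosystem II, was the most abundant photosystem gene, with 761 CPM in the anther and 8739 CPM in the leaf (11.5-fold lower, interval 11.3 to 11.7). RBCS3B, a Rubisco small subunit, had 155 CPM in the anther and 7541 CPM in the leaf (48.7-fold lower, interval 46.6 to 50.8). Its relative RBCS2A was only 3.58-fold lower in the anther (interval 3.52 to 3.63), at 1367 CPM against 4886 CPM in the leaf. The 3 listed small subunit genes therefore did not share 1 ratio: RBCS3B was the leading copy in the leaf and RBCS2A in the anther.

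CA1, a carbonic anhydrase, which interconverts CO2 and bicarbonate, had 19.8 CPM in the anther and 1289 CPM in the leaf (65.1-fold lower, interval 57.7 to 73.6). CA2, another carbonic anhydrase, had 50.5 CPM in the anther and 81.5 CPM in the leaf, the one carbon fixation gene within 2-fold. In photorespiration GOX1, a glycolate oxidase, had 92.9 CPM in the anther and 1425 CPM in the leaf (15.3-fold lower, interval 14.5 to 16.2), whereas GOX2 had 38.0 CPM in the anther and 37.9 CPM in the leaf.

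RCA2, a Rubisco activase, which keeps Rubisco active and is heat-labile in many plants, had the lowest ratio of the photosynthesis genes. It was at 16.8 CPM in the heated WT anther and 1541 CPM in the heated WT leaf (91.7-fold lower, interval 80.4 to 105). Control WT plants had 14.9 CPM in the anther and 152 CPM in the leaf (10.2-fold lower, interval 8.75 to 11.9). The A2AS pairs had the same layout, with 23.1 CPM in the heated anther against 1347 CPM in the heated leaf, and 10.4 CPM in the control anther against 105 CPM in the control leaf. The WT anthers lay close together and the heated A2AS anther was above the unheated one, while both heated leaves were far above the unheated leaves. RCA1, the other activase gene, had 48.6 CPM in the heated WT anther and 296 CPM in the heated WT leaf, a smaller difference than that of RCA2.

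Tapetum regulators and floral identity genes made up the opposite pole. All 4 tapetum regulators were at least 2-fold higher in the anther (median log2 ratio 5.30), as were LAT52 and all 6 class B and C MADS box genes (median 5.75). The share of genes higher over the whole table was 16.8%, with a median of 0.08. AMS, a basic helix-loop-helix (bHLH) factor of the tapetum, had 251 CPM in the anther and 2.81 CPM in the leaf (89.3-fold, interval 65.2 to 126). TDF1, a MYB factor that acts before AMS in Arabidopsis, had 141 CPM in the anther and 0.866 CPM in the leaf (163-fold, interval 92.9 to 315). MS10 and MS32 are bHLH factors whose loss makes tomato male-sterile. MS10 had 26.7 CPM in the anther and 0.216 CPM in the leaf (123-fold, interval 41.8 to 600.2). MS32 had 25.7 CPM in the anther and 0.144 CPM in the leaf (178-fold, interval 49.0 to 1477). The leaf values of MS10 and MS32 are 3 reads or fewer, which is why their intervals are wide.

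The class B genes, which specify petals and stamens, were led by SlDEF, with 713 CPM in the anther and 12.1 CPM in the leaf (58.8-fold, interval 50.5 to 68.9). SlGLO1 had 531 CPM in the anther and 6.96 CPM in the leaf (76.2-fold, interval 62.1 to 93.6). TM6, the second class B gene of the DEF type, had 127 CPM in the anther and 19.7 CPM in the leaf (6.47-fold, interval 5.69 to 7.37). TM6 was thus the least anther-biased of the 6 and the highest of them in the leaf. The class C gene TAG1, which specifies stamens and carpels, had 248 CPM in the anther and 3.10 CPM in the leaf (79.9-fold, interval 59.2 to 111).

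The SEPALLATA-type genes TM5 and TM29, whose products partner class B and C proteins, went with them. TM5 had 279 CPM in the anther and 4.15 CPM in the leaf (67.3-fold, interval 52.3 to 89.8). TM29 had 368 CPM in the anther and 5.27 CPM in the leaf (69.8-fold, interval 55.4 to 89.2). FUL1, a FRUITFULL-type gene, was the exception among the 8 other floral MADS genes, with 4.15 CPM in the anther and 26.2 CPM in the leaf (6.31-fold lower, interval 4.76 to 8.49). In A2AS plants FUL1 lay within 2-fold, at log2 ratios of -0.29 in the heated pair and -0.07 in the control pair. Of these 8, 4 were at least 2-fold higher, 1 lower and 3 within 2-fold, and RIN, a fruit ripening regulator, was at 0 in both libraries. Only 3 of the 8, TM5, TM29 and FUL1, reached the 10 CPM minimum, 2 of them higher and 1 lower. The shares of all genes at that minimum were 16.8% higher and 18.4% lower. The remaining calls of this list rest on genes below the minimum.

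LAT52, a pollen-specific gene needed for pollen hydration and tube growth, had 106 CPM in the heated WT anther and 2.67 CPM in the heated WT leaf (39.9-fold, interval 28.8 to 56.9). In control WT plants it had 295 CPM in the anther and 1.47 CPM in the leaf (200.2-fold, interval 125 to 344). The A2AS anthers had 163 CPM after heat and 136 CPM without, so the high value stood in the control WT anther alone. In such bulk samples fewer cells of a type and less RNA per cell cannot be told apart, and the mixture of anther stages in each library is not given.

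**Figure D2:**
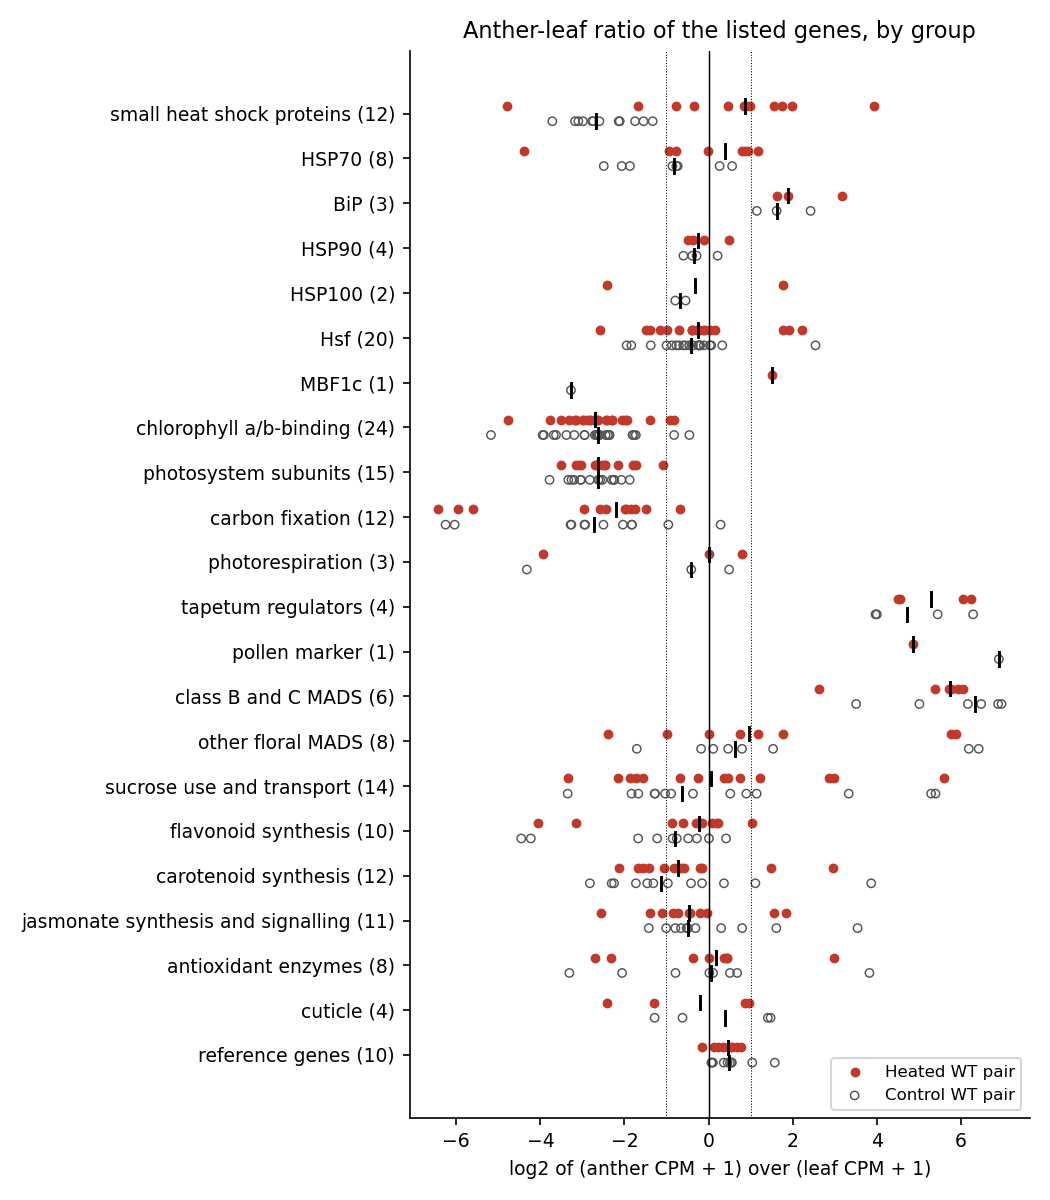
Log2 ratio of anther over leaf, as log2 of (CPM + 1) over (CPM + 1), for every listed gene, by list; filled points are the heated WT pair, open points below them the control WT pair, and black ticks the medians. Tapetum and class B and C MADS genes lie far to the right and photosynthesis genes to the left in both pairs, whereas the sHSP points differ in side between the pairs, with a median of 0.86 in heated and -2.67 in control plants.

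The small heat shock proteins were abundant in both heated tissues. The 12 listed genes summed to 12682 CPM (1.83% of the listed reads) in the heated WT anther and 12859 CPM (1.81%) in the heated WT leaf. The sum was nearly the same, but its members were not. At least 2-fold, 4 genes were higher in the anther and 2 lower, and 6 lay within 2-fold. Of all genes 16.8% were higher and 18.4% lower, so the count of lower sHSP genes was near the share of all genes. The median log2 ratio was 0.86 against 0.08 for all genes.

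The leaf-biased members in the heated WT pair were HSP21, the chloroplast sHSP, and Solyc05g014280. HSP21 had 1327 CPM in the heated WT anther and 4221 CPM in the heated WT leaf (3.18-fold lower, interval 3.13 to 3.24). In the heated A2AS pair HSP21 was not lower in the anther, with 1393 CPM in the anther and 741 CPM in the leaf (log2 ratio 0.91). The control A2AS pair had 24.2 CPM in the anther and 25.8 CPM in the leaf. Solyc05g014280 had 57.4 CPM in the anther and 1608 CPM in the leaf (28.0-fold lower, interval 26.1 to 30.1). HSP21 was thus the leading sHSP of the heated WT leaf by level, and Solyc05g014280 the most leaf-biased by ratio.

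The anther-biased members came from several compartments. Solyc06g076540, a class I cytosolic sHSP, had 376 CPM in the heated WT anther and 23.6 CPM in the heated WT leaf (15.9-fold, interval 14.2 to 17.9). Solyc08g062340, a class II cytosolic sHSP and the highest sHSP of the anther, had 2133 CPM in the anther and 539 CPM in the leaf (3.95-fold, interval 3.85 to 4.06). The endoplasmic reticulum (ER) sHSP Solyc11g020330 had 1745 CPM in the anther and 596 CPM in the leaf (2.93-fold, interval 2.86 to 3.0). The mitochondrial sHSP Solyc08g078700 had 1336 CPM in the anther and 397 CPM in the leaf (3.36-fold, interval 3.26 to 3.47). Other class I genes lay within 2-fold, as did Solyc06g076520, with 1360.3 CPM in the anther and 1722 CPM in the leaf. Class I sHSP genes are similar in sequence and how shared reads were assigned is not given.

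The same 12 genes were all at least 2-fold lower in the anther in control WT plants, with a median log2 ratio of -2.67, where 19.2% of the 9289 genes compared were higher and 19.4% lower. In the control A2AS pair 1 was higher, none was lower and the median was 0.16, where 26% of genes were higher and 15.9% lower. In the heated A2AS pair 8 were higher and 1 was lower, with a median of 1.68, where 25.9% were higher and 14.8% lower. The low ratios of the control WT pair thus went with the raised sHSP level of that leaf library, whereas in both heated pairs the median was above 0. Whether the control WT leaf differs by plant, handling or library was not tested.

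Most HSP70 and all HSP90 genes lay within 2-fold between the heated WT tissues. Of the 8 HSP70 genes of cytosol and organelles 1 was at least 2-fold higher in the anther, 1 lower and 6 within 2-fold. That is near the shares of all genes, 16.8% higher and 18.4% lower. The 8 genes summed to 3194 CPM in the anther and 3185 CPM in the leaf. Solyc11g066100 had 338 CPM in the anther and 148 CPM in the leaf (2.28-fold, interval 2.17 to 2.41). Solyc11g020040 had 14.9 CPM in the anther and 333 CPM in the leaf (22.4-fold lower, interval 19.5 to 25.9). All 4 HSP90 genes lay within 2-fold, led by Solyc07g065840 with 888 CPM in the anther and 1255 CPM in the leaf. The heated A2AS pair differed, with 5 HSP70 genes higher in the anther, 1 lower and 2 within 2-fold (median log2 ratio 2.29). Of the HSP90 genes 2 were higher there and 2 within 2-fold, where 25.9% of all genes were higher and 14.8% lower.

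The 2 genes of the HSP100 disaggregase family went opposite ways. HSP101 had 539.6 CPM in the heated WT anther and 156 CPM in the heated WT leaf (3.45-fold, interval 3.29 to 3.62). The ClpB gene Solyc02g088610 had 59.6 CPM in the anther and 323 CPM in the leaf (5.41-fold lower, interval 5.02 to 5.84). In control WT plants both were within 2-fold, at 29.4 CPM in the anther and 43.4 CPM in the leaf for HSP101 and at 25.2 CPM in the anther and 44.4 CPM in the leaf for Solyc02g088610. In the control A2AS pair, HSP101 was higher in the anther, with 31.1 CPM in the anther and 9.35 CPM in the leaf (log2 ratio 1.63), so an anther bias of HSP101 was also present without heat there. Solyc02g088610 had 131 CPM in the heated A2AS anther and 74.0 CPM in the heated A2AS leaf, not lower in the anther as in the heated WT pair.

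BiP genes, the HSP70 chaperones of the ER, were all 3 higher in the anther (median log2 ratio 1.90), where 16.8% of all genes were higher. Solyc03g082920 had 401 CPM in the anther and 129 CPM in the leaf (3.11-fold, interval 2.95 to 3.28). Solyc08g082820 had 253 CPM in the anther and 67.1 CPM in the leaf (3.76-fold, interval 3.50 to 4.05). Solyc01g099660 had 28.4 CPM in the anther and 2.24 CPM in the leaf (12.7-fold, interval 8.80 to 19.0). The same 3 were higher in the control WT anther, with a median of 1.62.

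Among the transcription factors, HsfA2, which sustains the response after its onset, was level between the heated WT tissues. It had 22.3 CPM in the anther and 21.7 CPM in the leaf (1.03-fold, interval 0.873 to 1.21). The heated A2AS pair was not level, with 39.3 CPM of HsfA2 in the anther and 2.72 CPM in the leaf (log2 ratio 3.44). In control WT plants it was at 1.93 CPM in the anther and 10.3 CPM in the leaf (5.34-fold lower, interval 3.42 to 8.65). The control A2AS libraries had 1.08 CPM in the anther and 2.25 CPM in the leaf, so the control WT leaf again stood out. Of the 20 listed Hsf genes only 6 reached the minimum of 10 CPM, and among them HsfA3 alone differed 2-fold, with 22.7 CPM in the anther and 51.8 CPM in the leaf (2.28-fold lower, interval 1.99 to 2.61). That 1 of 6 is near the 18.4% of all genes that were lower at the minimum. Without that minimum 3 Hsf genes were higher, 4 lower and 13 within 2-fold. Of all 29345 genes 3672 were then higher and 3234 lower. HsfB1, which can act as repressor or coactivator, was the most abundant in the anther, at 39.5 CPM in the anther and 47.6 CPM in the leaf. HsfA7, a relative of HsfA2, was low, at 9.62 CPM in the anther and 2.09 CPM in the leaf (4.60-fold, interval 3.06 to 7.13).

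MBF1c, a coactivator of stress genes, had 92.7 CPM in the heated WT anther and 32.0 CPM in the heated WT leaf (2.89-fold, interval 2.59 to 3.23). In control WT plants it had 5.88 CPM in the anther and 65.5 CPM in the leaf (11.1-fold lower, interval 8.74 to 14.4). The heated A2AS pair had 246 CPM in the anther and 13 CPM in the leaf, and the control A2AS pair 4.40 CPM in the anther and 5.44 CPM in the leaf. MBF1c was therefore higher in the heated WT anther than in the leaf, and its control WT leaf level was above its heated WT leaf level.

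**Figure D3:**
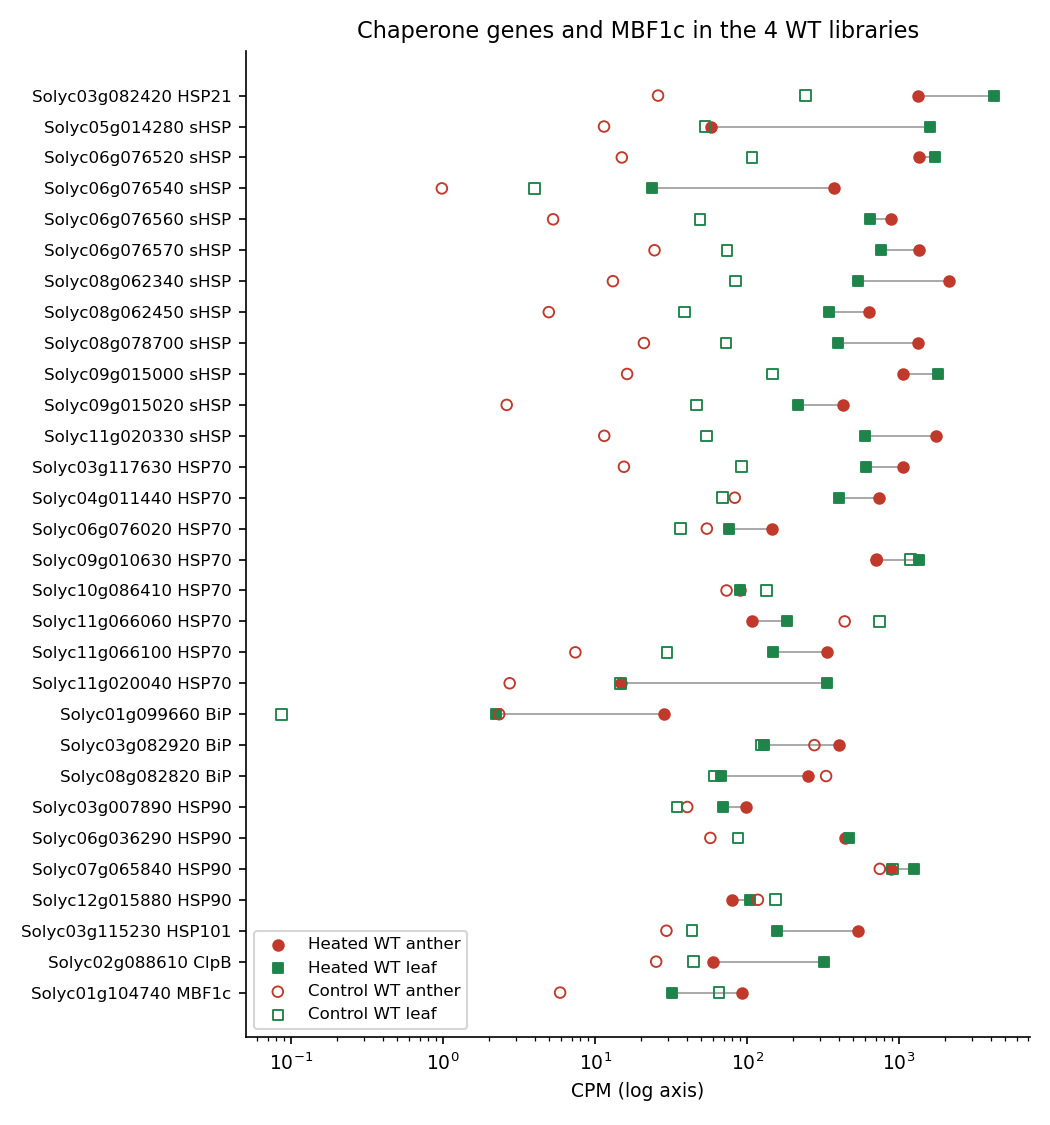
CPM on a log axis for 30 heat response genes in the heated WT anther, heated WT leaf, control WT anther and control WT leaf. The sHSP genes lie mostly far above their control levels in both heated tissues, and in control plants the leaf lies above the anther for all 12 of them.

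Sugar genes had no common direction. Of 14 genes of sucrose use and transport, 4 were at least 2-fold higher in the anther, 5 lower and 5 within 2-fold. At the 10 CPM minimum 2 of 8 were higher and 3 lower, where 16.8% of all genes were higher and 18.4% lower. Cell wall invertases split sucrose outside the cell: LIN5 had 90.0 CPM in the anther and 0.866 CPM in the leaf (104-fold, interval 59.3 to 202), whereas LIN6 had 2.62 CPM in the anther and 15.2 CPM in the leaf (5.80-fold lower, interval 4.06 to 8.51). SUT1, the transporter that loads sucrose into the phloem, had 2.11 CPM in the anther and 30.8 CPM in the leaf (14.6-fold lower, interval 10 to 22). INVINH1, an inhibitor of cell wall invertase, had 21.8 CPM in the anther and 74.3 CPM in the leaf (3.42-fold lower, interval 3.0 to 3.89).

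LIN7, the cell wall invertase known from anthers and pollen, had 20.0 CPM in the heated WT anther and 1.88 CPM in the heated WT leaf (10.7-fold, interval 7.13 to 16.6). Without heat, WT plants had 99.5 CPM in the anther and 1.39 CPM in the leaf (71.7-fold, interval 44.0 to 126). The A2AS anthers had 53.4 CPM after heat and 48.9 CPM without, between the WT values. Like LAT52, LIN7 was lowest in the heated WT anther and highest in the control WT anther among the 4 anther libraries.

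Of 10 genes of flavonoid synthesis 1 was higher in the anther, 2 lower and 7 within 2-fold, close to the 16.8% and 18.4% of all genes. The entry enzyme CHS2 had 950.0 CPM in the anther and 808 CPM in the leaf. F3H, the next step but one, had 547 CPM in the anther and 266 CPM in the leaf (2.06-fold, interval 1.98 to 2.14), and lay within 2-fold under median-ratio scaling, where no gene of the list was higher. Both lower genes lead on to anthocyanins: DFR had 3.72 CPM in the anther and 40.8 CPM in the leaf (11-fold lower, interval 8.23 to 14.9), and ANS had 1.68 CPM in the anther and 43.7 CPM in the leaf (26.1-fold lower, interval 17.2 to 41.5).

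In carotenoid synthesis 2 of 12 genes were higher in the anther and 5 were lower (median log2 ratio -0.74). At the 10 CPM minimum 1 of 10 was higher and 5 lower, where 16.8% of all genes were higher and 18.4% lower. CRTRB2, the carotene hydroxylase of flowers, had 72.1 CPM in the anther and 8.44 CPM in the leaf (8.54-fold, interval 7.05 to 10.4). ZEP, which makes violaxanthin, had 38.1 CPM in the anther and 169 CPM in the leaf (4.44-fold lower, interval 4.03 to 4.89). PSY2, the phytoene synthase of green tissue, had 30.7 CPM in the anther and 101 CPM in the leaf (3.28-fold lower, interval 2.94 to 3.67).

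In the jasmonate list, 2 of 11 genes were higher in the anther, 3 lower and 6 within 2-fold. At the 10 CPM minimum 1 of 6 was higher and 1 lower, close to the 16.8% and 18.4% of all genes. JAZ1, a repressor of jasmonate responses, had 464 CPM in the anther and 158 CPM in the leaf (2.93-fold, interval 2.79 to 3.08). LOXD, a lipoxygenase of jasmonate synthesis, had 15 CPM in the anther and 41.0 CPM in the leaf (2.73-fold lower, interval 2.33 to 3.23). OPR3, which makes the precursor that is shortened to jasmonate, lay within 2-fold, with 43.7 CPM in the anther and 79.9 CPM in the leaf.

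In the antioxidant list 1 of 8 genes was higher in the anther and 2 lower, close to the 16.8% and 18.4% of all genes. These 3 were the catalases, which remove hydrogen peroxide. CAT3 had 53.6 CPM in the anther and 5.92 CPM in the leaf (9.06-fold, interval 7.21 to 11.5). CAT2 had 127 CPM in the anther and 638 CPM in the leaf (5.04-fold lower, interval 4.79 to 5.31). CAT1 had 13.1 CPM in the anther and 90.4 CPM in the leaf (6.89-fold lower, interval 5.89 to 8.10). Superoxide dismutases and ascorbate peroxidases lay within 2-fold, among them CSD1 with 1094 CPM in the anther and 812 CPM in the leaf.

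Of the 4 cuticle genes, CER6, a very-long-chain fatty acid elongase for wax, had 32.8 CPM in the anther and 179.7 CPM in the leaf (5.48-fold lower, interval 4.95 to 6.07). CD2, a homeodomain regulator of cutin, had 19.7 CPM in the anther and 49.8 CPM in the leaf (2.52-fold lower, interval 2.19 to 2.91). All 10 genes used as references in tomato work lay within 2-fold, with log2 ratios from -0.15 for ACT to 0.78 for UBI3 and a median of 0.46, above the 0.08 of all genes.

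The tissue difference was tested over the 4 anther and leaf pairs with limma, each pair being a block, at a Benjamini-Hochberg adjusted p of 0.05. The p-values measure how the difference varies over genotypes and treatments, not between replicate plants. Of 15220 genes averaging 2 CPM or more, 6335 (41.6%) were higher in the anther and 3597 (23.6%) lower. The split depended on scaling: after rescaling by the median ratio it was 4859 higher (32%) and 4740 lower (31.2%). As the 2 A2AS pairs had median log2 ratios of 0.51 heated and 0.47 control, against 0.08 and 0.11 in the heated and control WT pairs, small positive differences in this test are less certain than large ones.

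All 4 tapetum regulators, LAT52 and all 6 class B and C genes were called higher in this limma fit. Of the CAB genes 23 of 23 tested were called lower, as were all 15 photosystem genes and 11 of 12 carbon fixation genes. AMS averaged a log2 difference of 6.06 ± 0.16 (SE; limma adjusted p 8.4e-08, higher in 4 of 4 pairs). CA1 averaged -6.29 ± 0.18 (limma adjusted p 1.07e-07, lower in 4 of 4 pairs). SUT1 averaged -3.12 ± 0.18 (limma adjusted p 1.55e-06), CRTRB2 3.48 ± 0.19 (limma adjusted p 1.38e-06) and CAT3 3.59 ± 0.20 (limma adjusted p 1.38e-06), each in 1 direction in 4 of 4 pairs. All 3 BiP genes were called higher as well, among them Solyc08g082820 at 2.06 ± 0.17 (limma adjusted p 1.0e-05).

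The sHSP genes and HsfA2 did not share this steadiness over pairs. Of 8 HSP70 genes the same fit called 2 higher and 1 lower, and of 12 Hsf genes tested 2 higher and 2 lower. It called 1 of 4 HSP90 genes and 1 of 2 HSP100 genes higher, where 41.6% of all genes were called higher and 23.6% lower. Of the 12 sHSP genes none was called higher and 1 lower, Solyc05g014280 at -2.60 ± 0.59 (limma adjusted p 0.00418). HSP21 averaged -1.01 ± 0.55 (limma adjusted p 0.138) and HsfA2 0.22 ± 0.70 (limma adjusted p 0.793). A limma contrast of the 2 heated tissues took its spread from all 8 libraries, with the genotypes as the only repeats. It called 33.7% of all genes higher and 19.9% lower, and of the sHSP genes 4 higher and 1 lower. The 4 were Solyc06g076540 (4.28 ± 0.49, limma adjusted p 0.000191), Solyc08g062340, Solyc11g020330 and Solyc08g078700, the same genes that were 2-fold higher in the heated WT anther, which is itself 1 of the 2 heated pairs in that fit. MBF1c averaged 2.82 ± 0.97 there (limma adjusted p 0.0380) and HSP101 2.59 ± 0.64 (limma adjusted p 0.00936).

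Setting the heated WT pair against the other 3 pairs, with which it shares no library, gives a check on values not used in it. A limma fit of those 3 pairs called 40.9% of all genes higher and 21.4% lower in the anther. Of the 1621 genes at least 2-fold higher in the heated WT anther, 1558 (96.1%) were called higher and none lower. Of the 1769 genes that were lower, 1580 (89.3%) were called lower and 1 higher. In all 4 pairs, 1004 of the 1621 (61.9%) were at least 2-fold higher and 932 of the 1769 (52.7%) at least 2-fold lower. By the same measure 56 genes were higher and 178 lower in the heated WT pair alone.

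Of genes compared in both WT pairs, 8905 in number, the log2 ratios of the heated and control pairs correlated at r = 0.945 across genes, which are not independent replicates. The genes at least 2-fold higher in the anther in both were 1215, 75.0% of the 1621 in heated and 68.2% of the 1782 in control plants. Those lower in both were 1396, 78.9% of the 1769 in heated and 77.6% of the 1799 in control plants. Direction turned at 2-fold for 12 genes. Of these, 10 were lower in the control and higher in the heated anther, and 5 of the 10 were listed heat response genes: Solyc08g062340, Solyc08g078700, Solyc11g020330, Solyc11g066100 and MBF1c. All 5 rest on the control WT leaf library with its raised heat shock level.

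**Figure D4:**
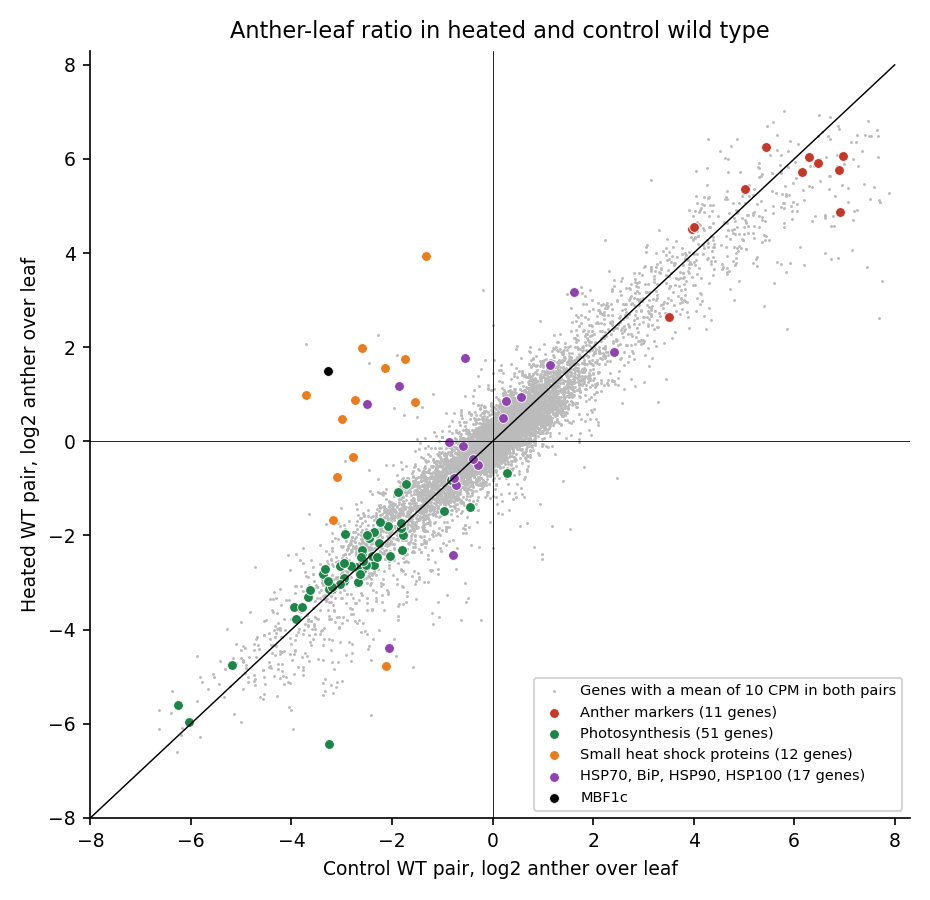
Log2 ratio of anther over leaf in the heated WT pair (vertical axis) against the control WT pair (horizontal axis) for genes compared in both, r = 0.945, with listed groups coloured. Photosynthesis genes and anther markers lie along the diagonal at either end, and 11 of the 12 sHSP genes lie above it, the exception being Solyc05g014280.

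Whether the tissue difference was another one in heated than in control plants was tested with limma as an interaction over the 8 libraries, with the genotypes as the only repeats. Of 15220 genes 1 was called (0.00657%), and 980 had an unadjusted p under 0.05. That gene, Solyc12g057060, had 8.50 CPM in the heated WT anther and 49.2 CPM in the heated WT leaf, and 54.7 CPM in the control WT anther and 27.1 CPM in the control WT leaf. Its difference of differences was -3.11 ± 0.27 (limma adjusted p 0.0374), and it was lower in the anther in both heated pairs and higher in both control pairs.

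No listed gene was called in that interaction. RCA2 came to -2.88 ± 0.37 (limma adjusted p 0.0749), Solyc06g076540 to 4.56 ± 0.70 (limma adjusted p 0.0982) and MBF1c to 4.59 ± 1.37 (limma adjusted p 0.478). With the heated and control library of each tissue and genotype as a block, a setting added after the data were seen, limma called 55 genes higher (0.361%) and 90 lower (0.591%). These included 4 sHSP genes (Solyc06g076540, Solyc06g076570, Solyc08g062340 and Solyc11g020330), the HSP70 gene Solyc11g066100, HSP101 and RCA2. The count of the first fit was 0 without the WT anther libraries, 11 without the WT leaf, 90 without the A2AS leaf and 96 without the A2AS anther libraries.

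A last comparison concerned how low the transcripts of one tissue went in the other. Of the 51 genes at 1000 CPM or more in the heated WT anther, none was below 9.89 CPM in the heated WT leaf, the lowest leaf level was 0.700% of the anther level, and 7 were under 1%. In control WT plants 20 of 46 such genes were under 1% and the lowest was 0.406%. Of the 75 genes at 1000 CPM or more in the heated WT leaf, 1 was under 1% in the anther, and RCA2 was at 1.09%. Genes of at least 10 CPM in one tissue and none in the other were 15 with reads in the anther alone and 2 with reads in the leaf alone. Where these low levels come from was not tested.

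**Figure D5:**
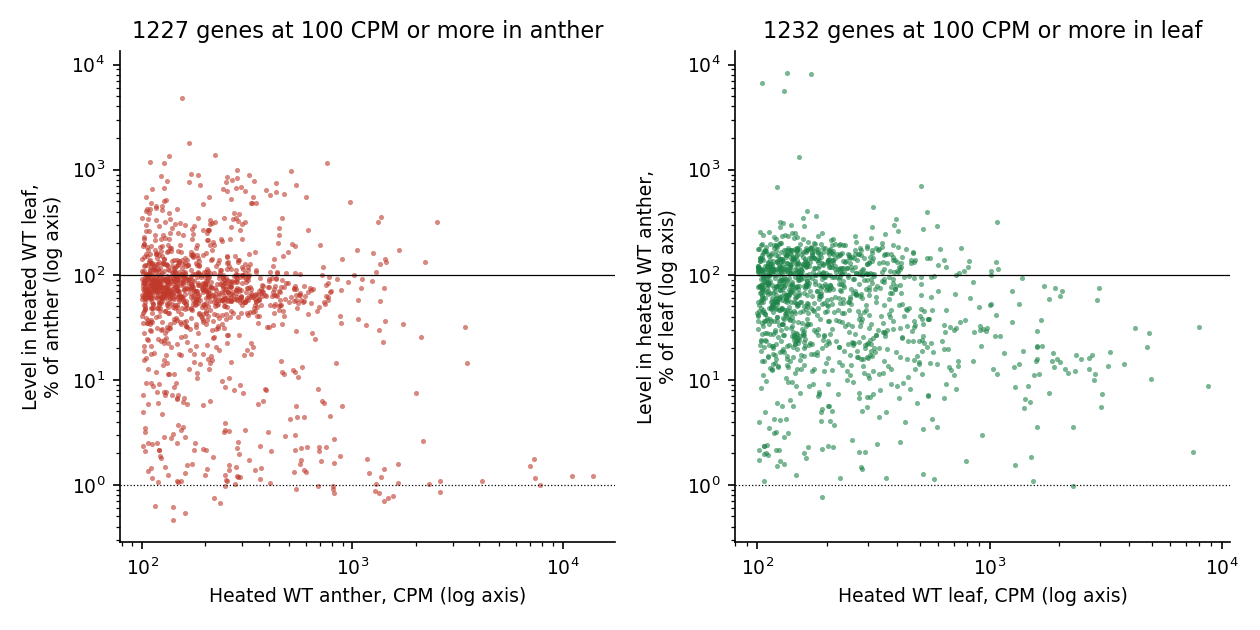
Level in the other tissue as a percentage (log axis) against the level in the tissue of abundance in CPM (log axis), on the left for the 1227 genes at 100 CPM or more in the heated WT anther and on the right for the 1232 genes at 100 CPM or more in the heated WT leaf. The lower edge of the points lies at 0.462% on the left and 0.765% on the right.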

How the data were processed

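The authors deposited 1 table per library with CPM values (reads per 1000000 of the library, called TPM there, with no gene length term, as MACE gives 1 read per transcript per the labels). FastQC is named in the submitters' processing notes. Not given in the sources used here are the aligner, the counter, the genome build, the strand setting and the treatment of multiply matching reads: antisense partners and near-identical copies are therefore uncertain. Library totals were taken as 1000000 divided by the most frequent value above 0 of each library, which was read as 1 read. Between 77.6% and 83.9% of the values above 0 were then whole reads within 0.001 of a read, too few for a count model.

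Log2 ratios used a pseudocount of 1 and a minimum pair mean of 10 CPM, and 2-fold was the limit. List counts take all members without that minimum. limma 3.58.1 (R 4.3.3) ran on log2(CPM + 1) for genes averaging 2 CPM or more, with variance trend and Benjamini-Hochberg adjustment at 0.05. Intervals came from scipy 1.17.1 on values turned into whole reads. No molecular identifiers are described in the labels, so that such intervals show counting error and nothing else. Both steps were tested on simulated data.

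The members and the 22 lists (192 genes, all found) were chosen with earlier results of these data known, and gene names rest on published nomenclature. Genes named were HsfA2, the up to 2 highest and 2 lowest members of each list with the highest level among them, members of 1-gene lists, and unlisted genes at either end of the ratios and of each limma fit. Other listed genes named were chosen after their values were seen. Alternatives changed the scaling, the pseudocount, the minimum, the fold, the block and the libraries used.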

Additional observations from a re-analysis of the deposited data

Results flagged for a closer look

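The tissue difference of Solyc12g057060 differed between heated and control plants by a test of the difference itself (limma interaction, log2 -3.11 ± 0.27 SE, adjusted p 0.0374). It had 8.50 and 9.19 CPM in the heated WT and A2AS anthers, against 49.2 and 39.5 CPM in the heated WT and A2AS leaves. Without heat it had 54.7 and 45.7 CPM in the WT and A2AS anthers, against 27.1 and 25.2 CPM in the WT and A2AS leaves. The sign was the same in both genotypes. The call was lost without the WT anthers, where no gene was called, and with no minimum level, where the 1 gene called was another one. The files give this ID no name.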

How the results depend on the processing

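The count of 3390 genes at least 2-fold different came to 6906 with no minimum level, 1090 with a minimum of 50 CPM and 1633 at 4-fold, which follows from how many genes enter or what is counted. Under median-ratio scaling it was 3224, without the 100 most abundant genes 3322, and with pseudocounts of 0.5 and 5 it was 3442 and 2928. The limma count over 4 pairs, 9932, came to 8290 to 9478 when 1 pair was left out. The limma interaction count of 1 came to 21 with a pseudocount of 5, 2 with a genotype term, 3 with the anther and leaf pair as a block and 145 with the heated and control pair as a block. The last 2 blocks were added after the data were seen. Leaving out 1 tissue and genotype gave 0 to 96, with 0 without the WT anthers, 11 without the WT leaves, 90 without the A2AS leaves and 96 without the A2AS anthers. There the lone libraries are assumed to vary like the others, and the cause was not tested. With no minimum the 1 interaction call was higher instead of lower. Counts of list members moved by over 1.5 times for 4 lists at the 10 CPM minimum and 3 lists at a pseudocount of 5, among them the Hsf genes. Of 73 named log2 ratios, 31 lay outside the counting interval of their fold under median-ratio scaling and none changed sign where called. That interval has no pseudocount, so some low genes, such as TDF1, LIN5 and ANS, lay outside it before rescaling too. No paired analysis by replicate number was possible because the labels give none, and the blocks above pair libraries by tissue, genotype and treatment. With 1 library a tissue, plant to plant spread is unknown, and genes of a few reads have wide intervals.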

Other observations

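After Solyc12g057060, the unlisted genes with the smallest limma p in the interaction of tissue and heat were Solyc12g013700 and Solyc02g078250. Solyc12g013700 had 91.2 CPM in the heated WT anther and 0.361 CPM in the heated WT leaf, and 11.6 CPM in the control WT anther and 0.260 CPM in the control WT leaf (interaction 2.65 ± 0.29, limma adjusted p 0.0658). Solyc02g078250 had 27.8 CPM in the heated WT anther and 3.68 CPM in the heated WT leaf, and 512 CPM in the control WT anther and 1.47 CPM in the control WT leaf (interaction -4.67 ± 0.52, limma adjusted p 0.0658). Neither passed the threshold of 0.05. In A2AS anthers Solyc12g013700 had 81.1 CPM with heat and 13.4 CPM without, and Solyc02g078250 had 16.5 CPM with heat and 336 CPM without.

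Photosynthesis transcripts of the heated leaves also stood apart by genotype. The 51 genes summed to 176305 CPM in the heated A2AS leaf and 87341 CPM in the heated WT leaf, and to 13053 CPM in the heated A2AS anther and 12194 CPM in the heated WT anther. The control leaves stood at 175687 CPM in A2AS and 117903 CPM in WT. With 1 library each, genotype and library cannot be told apart.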
